A study of Mus musculus with 2 samples.

Results

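Cathepsins are the proteases that microglia use to digest what they engulf, and cystatins are inhibitors of the cysteine type. The 10 genes described here are 8 cathepsins and 2 cystatins. They were taken by gene name from the 13549 genes of a bulk RNA sequencing table of mouse retinal microglia. The rule uses no measured value, but the set was chosen with earlier results of these data known. All 10 were in the table with 1 row each. The animals (CD11c-Cre-gfp;Rosa-TDTom, sampled at postnatal day 5) carried a CD11c-driven transgene for Cre and GFP and a TdTomato reporter at the Rosa locus, which Cre switches on permanently. Cells positive for both GFP and TdTomato (Cd11c-active, 4041 cells) and cells positive for TdTomato without GFP (Cd11c-lineage, 5441 cells) were sorted from 8 retinas, given as 4 female and 4 male. The labels name no treatment other than the sort, cells of both groups carried the same transgenes, and each group gave 1 library. No difference below therefore has a replicate check and no p-value is given. The groups are thus defined by reporter signal from a CD11c transgene, present or past, and not by CD11c protein. *Itgax*, which encodes CD11c, had 2409 and 1698 reads.

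Newly made cathepsins are inactive proenzymes that are carried to lysosomes by mannose 6-phosphate receptors and other sorting receptors, where they mature at acidic pH. They are classed by the group that cuts the peptide bond: a cysteine (cathepsins B, C, H, L, S and Z), an aspartate pair (cathepsin D) or a serine (cathepsin A). Cystatin C, from *Cst3*, is secreted and blocks cysteine cathepsins outside cells and in endosomes, and cystatin B, from *Cstb*, does so in the cytosol and nucleus. In microglia and other macrophages these enzymes break down engulfed cells and cut the invariant chain and antigens for presentation.

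The Cd11c-active library held 12943998 reads and the Cd11c-lineage library 13402625. Levels are CPM, meaning counts relative to the TMM-scaled size of each library, and every log2 ratio is Cd11c-active over Cd11c-lineage on that scale unless a sentence says otherwise. TMM scaling set each ratio 0.14 (log2) above its value relative to library totals. The share of ribosomal *Rn18s* was 8.57% of all reads in the active library against 2.84%. All 12 microglial markers had over 1000 reads, with a summed level of 23148 CPM in Cd11c-active and 21696 CPM in Cd11c-lineage. Their log2 ratios were above 0 for 5 and below 0 for 7 (median -0.02), from -0.54 for *Siglech* to 0.59 for *C1qa*. All 8 endothelial markers were above 0 in log2 ratio (summed level 646 and 73.7 CPM), and 5 of them were at 0 reads in Cd11c-lineage. All 5 border macrophage markers in the table (of 6 on the list) were below 0 (summed level 21.2 and 131 CPM), and 4 of them were at 0 reads in Cd11c-active. Of 9 retinal neuron markers in the table (12 listed), 8 were below 0 (84.6 and 166 CPM summed). The 6 pericyte markers summed to 62.8 and 2.21 CPM, with 5 at 0 reads in Cd11c-lineage. *Notch3*, on the same list, went the other way with 0 and 31 reads. Of 5 dendritic cell markers listed, only 1, *Zbtb46*, was in the table, with 200 and 0 reads. Monocyte and neutrophil markers summed to 2.83 and 17.0 CPM, with 3 of the 4 in the table (5 listed) at 0 reads in Cd11c-active. The other marker of this list, *Ccr2*, had 35 and 0 reads. Of 5 Muller glia and astrocyte markers in the table (7 listed), 2 were above 0 and 3 below. They summed to 2270 and 2438 CPM, of which *Glul* alone made up 2249 and 2369 CPM. Among the others, *Slc1a3* had 73 and 642 reads and *Rlbp1* 94 and 0. Of 5 erythroid markers listed, only 1, *Hbb-bt*, was in the table, with 0 and 31 reads. The part of these cells in the values below was not tested. In bulk samples, fewer cells of a type and less RNA per cell cannot be told apart.

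The members took 3.31% of the active library (3.30 to 3.32, Wilson 95% interval) and 2.82% of the lineage library (2.81 to 2.83). The 8 cathepsins alone had 398549 and 351884 reads, and the 2 cystatins 29320 and 25722. These intervals, like all intervals on reads below, cover counting error only, since copies made by PCR cannot be told from separate RNA molecules here. Against the 12 microglial markers, a ratio within each library that no scaling can move, the members had 1.497 reads per marker read in Cd11c-active and 1.24 in Cd11c-lineage.

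**Figure D1:**
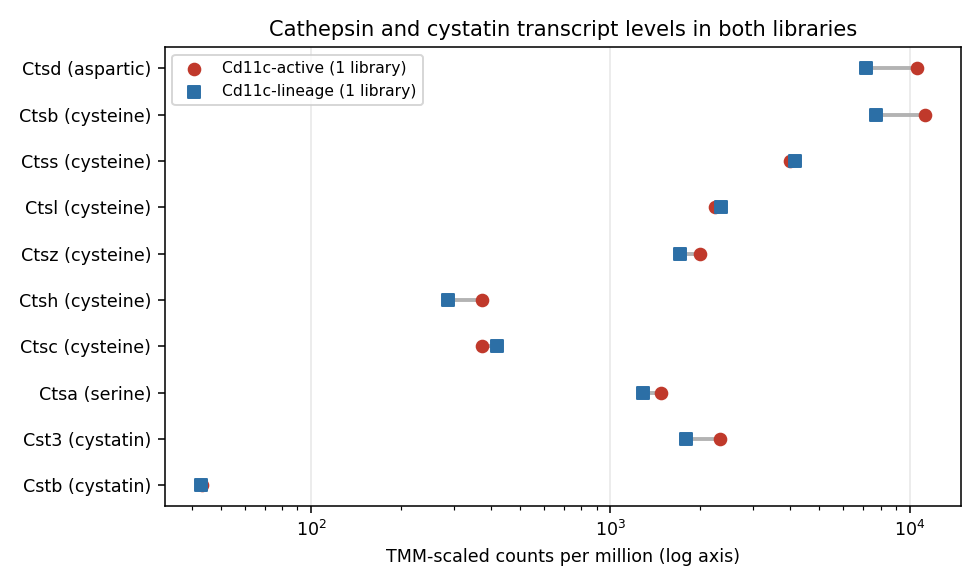
Level of each gene in CPM after TMM scaling, on a log axis, with 1 point per library. Ctsd and Ctsb lie farthest to the right and furthest apart, while the Ctss, Ctsl and Cstb points nearly coincide.

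Cathepsin B (*Ctsb*) and cathepsin D (*Ctsd*), the endopeptidases that do much of the bulk digestion in lysosomes, were the most abundant members by reads and were both higher in Cd11c-active. *Ctsb* (ENSMUSG00000021939) was counted 138995 times in the active library and 108212 times in the other, which placed it 4th and 5th among all genes. *Ctsd* (ENSMUSG00000007891) had 130952 and 100576 reads and ranked 5th and 6th. Both genes were thus near the top of either library and were higher in Cd11c-active by about the same factor in reads as counted. The level of *Ctsb* was 11258 and 7701 CPM, a 1.46-fold difference (log2 ratio 0.55, 95% counting interval 0.54 to 0.56). That of *Ctsd* was 10606 and 7158 CPM, a 1.48-fold difference (log2 ratio 0.57, 0.56 to 0.58). Counting error is small at this depth, so the ratios were also set beside those of other abundant genes. Among the 200 other genes nearest in reads, the middle 95% of log2 ratios ran from -0.45 to 0.97 for both, and *Ctsb* and *Ctsd* each stood at percentile 89.5, with 21 of the 200 as high or higher. Both ratios thus lay inside the range of these 200 genes, which had from 14704 to 1489648 reads over both libraries. Most of them had fewer reads than *Ctsb* and *Ctsd*, so the range is not that of equally abundant genes. Among the 50 nearest genes the middle 95% ran from -0.42 to 1.31 for *Ctsb* and from -0.42 to 1.01 for *Ctsd*, which was no narrower.

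Cathepsin S (*Ctss*) and cathepsin L (*Ctsl*) are the endopeptidases best known for invariant chain processing, cathepsin S in macrophages and other antigen-presenting cells and cathepsin L in thymic epithelium. Their levels were nearly equal in the libraries. *Ctss* (ENSMUSG00000038642) had 49080 and 58201 reads, or 3975 CPM in Cd11c-active and 4142 CPM in Cd11c-lineage. Its log2 ratio was -0.06 (counting interval -0.08 to -0.04). *Ctsl* (ENSMUSG00000021477) had 27618 and 32919 reads, or 2237 and 2343 CPM, and a log2 ratio of -0.07 (-0.09 to -0.04). The reads of *Ctss* per read of *Ctsl* were 1.78 in Cd11c-active and 1.77 in Cd11c-lineage. The log2 ratios of the pair differed by 0.01 (-0.02 to 0.04).

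The exopeptidases trim single residues or dipeptides from peptide ends, and they did not share a direction. *Ctsz*, a carboxypeptidase (ENSMUSG00000016256), had 24552 and 23963 reads and a log2 ratio of 0.22 (0.20 to 0.25), which a correction for transcript length and GC content turned to -0.10. *Ctsh*, an aminopeptidase (ENSMUSG00000032359), had 4588 and 4021 reads and a log2 ratio of 0.38 (0.32 to 0.44), which was 0.20 after the same correction. *Ctsc*, the dipeptidyl peptidase that activates the granule serine proteases of leukocytes (ENSMUSG00000030560), had 4586 and 5879 reads. Its log2 ratio of -0.17 (-0.23 to -0.12) was the lowest of the 10 on this scale, and it was -0.01 after the same correction, when 5 members were lower. *Ctsh* and *Ctsc* thus had almost the same number of reads in Cd11c-active and opposite signs in ratio. They stood at percentiles 85.0 and 32.0 of their nearest 200 genes, whose middle 95% ran from -0.68 to 0.70 and from -0.64 to 0.74.

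Cathepsin A (*Ctsa*, ENSMUSG00000017760), the serine carboxypeptidase that also holds neuraminidase 1 and beta-galactosidase in a protective complex, had 18178 and 18113 reads. Its level was 1472 CPM in Cd11c-active and 1289 CPM in Cd11c-lineage, a log2 ratio of 0.19 (0.16 to 0.22). This ratio was 0.06 relative to library totals and 0.005 after the length and GC correction. Judged by counting error only, the partners in that complex differed from *Ctsa* and from each other. *Neu1* had 1050 and 381 reads, a log2 ratio of 1.65 (1.48 to 1.82), and *Glb1* had 1111 and 1504 reads, a log2 ratio of -0.25 (-0.36 to -0.14).

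The secreted and the cytosolic inhibitor differed in level by far. *Cst3* (ENSMUSG00000027447) had 28789 and 25121 reads, or 2332 and 1788 CPM. The log2 ratio of *Cst3* was 0.38 (0.36 to 0.41), at percentile 84.5 of its nearest 200 genes, and turned to -0.03 after the length and GC correction. *Cstb* (ENSMUSG00000005054) had 531 and 601 reads, or 43.0 and 42.8 CPM, and a log2 ratio of 0.01 (-0.16 to 0.18). The counting interval of *Cstb* was the only one among the 10 that included 0. Its 200 nearest genes spread from -1.58 to 2.48 in their middle 95%, and a ratio of the size seen for *Ctsb* would lie well inside that range.

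**Figure D2:**
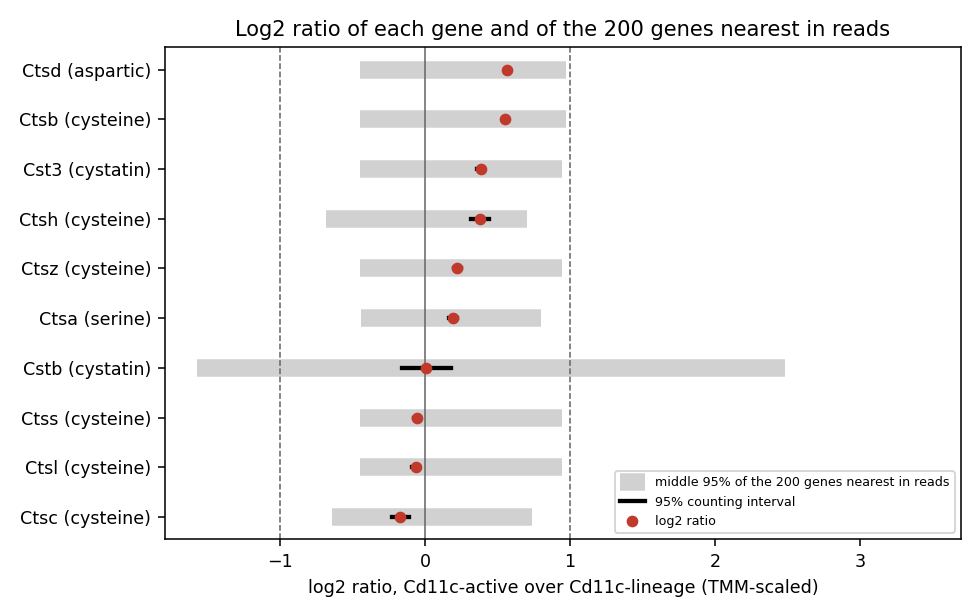
Log2 ratio of each gene (points) with its 95% counting interval (black) and the middle 95% of the 200 genes nearest in reads (grey bars), with dashed lines at 2-fold. The order runs from Ctsd at 0.57 to Ctsc at -0.17, and all 10 points lie inside their grey bars.

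Read over the 10 genes, 7 log2 ratios were above 0 and 3 below, with a median of 0.21, and the median over all 13037 genes with at least 20 reads was 0.005. With the ratios relative to library totals, 6 were above 0, as *Cstb* moved to -0.13, and the medians were 0.07 and -0.13. The correction for transcript length and GC content removed the difference in medians (-0.02 for the members and -0.01 for all genes), with 4 members above 0. *Ctsz* was then at -0.10, *Cst3* at -0.03, *Cstb* at -0.30, *Ctss* at -0.16, *Ctsl* at -0.07 and *Ctsc* at -0.01, and *Ctsb* (0.61), *Ctsd* (0.34), *Ctsh* (0.20) and *Ctsa* (0.005) stayed above 0. None of the 10 (0 of 10) was past 2-fold in either direction, against 44.9% of all genes with at least 20 reads and 9.57% of the 4619 genes with at least 1000 reads, a range that holds all members. Nor was any (0 of 10) past 1.5-fold on the TMM scale, which 29.1% of those 4619 genes were. After the length and GC correction 1 of the 10 was, *Ctsb* at 1.52-fold, against 26.1% of those genes. The share past a fold falls as reads increase, and most members were far more abundant than these genes.

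**Figure D3:**
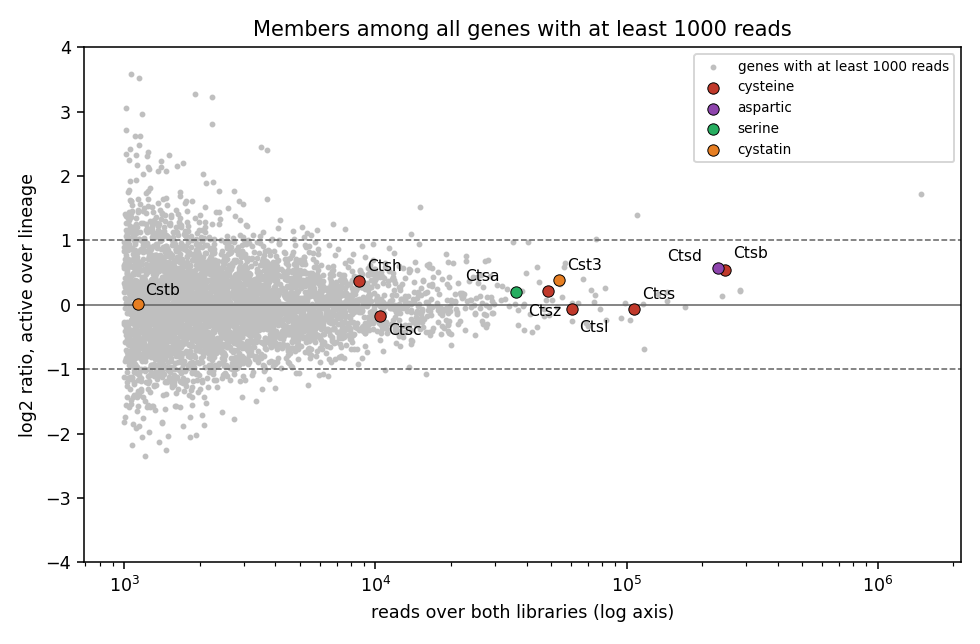
Log2 ratio against the reads over both libraries (log axis) for 4619 genes with at least 1000 reads (grey; 15 lie beyond the plot's limit of 4) and for the members by class. The grey cloud narrows to the right, and Ctsb and Ctsd lie at its right end above 0.

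In order of log2 ratio the genes ran *Ctsd*, *Ctsb*, *Cst3*, *Ctsh*, *Ctsz*, *Ctsa*, *Cstb*, *Ctss*, *Ctsl* and *Ctsc*. Between neighbours in this order, the counting interval of the difference included 0 for *Cst3* and *Ctsh*, *Ctsz* and *Ctsa*, *Cstb* and *Ctss*, and *Ctss* and *Ctsl*. The widest step between neighbours was that of 0.18 from *Ctsa* to *Cstb*. Over all 45 pairs of members, 0 differed by more than the 95% range that the robust SDs of their nearest genes give for a difference. That SD was 0.28 to 0.40 for 9 members and 0.77 for *Cstb*. The order is thus a description of these libraries.

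The cathepsin classes were compared by ratios of reads within each library, which no scaling of the libraries can move, though a correction per gene for length and GC content can. For each read of the 6 cysteine cathepsins together there were 0.525 reads of the aspartic *Ctsd* in Cd11c-active and 0.431 in Cd11c-lineage, a log2 difference of 0.28 (counting interval 0.27 to 0.30), which was 0.07 after that correction. This contrast depended on *Ctsb*, which held 138995 of the 249419 cysteine cathepsin reads of Cd11c-active. *Ctsd* reads per *Ctsb* read were 0.942 and 0.929, a log2 difference of 0.02 (0.003 to 0.04) that the correction turned to -0.26. Against the other 5 cysteine cathepsins, *Ctsd* went from 0.805 reads per read in Cd11c-lineage to 1.19 in Cd11c-active (log2 difference 0.56, 0.54 to 0.58, and 0.45 corrected). *Ctsb* did likewise against the same 5, from 0.866 to 1.26 (0.54, 0.52 to 0.56, and 0.71 corrected). The range within the cysteine class, from -0.17 for *Ctsc* to 0.55 for *Ctsb*, was thus wider than the difference between the classes. The serine enzyme *Ctsa* had 0.0729 and 0.0777 reads per cysteine cathepsin read, a log2 difference of -0.09 (-0.12 to -0.06), or -0.26 corrected.

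As shares of all cathepsin reads, *Ctsb* took 34.9% in Cd11c-active and 30.8% in Cd11c-lineage, and *Ctsd* 32.9% and 28.6%. Their joint share was 67.7% and 59.3%. *Ctss* went the other way, with 12.3% and 16.5%, as did *Ctsl*, with 6.93% and 9.36%. The remaining 4 held between 1.14% and 6.81% each in either library, and *Ctsh* had nearly the same share in both (1.15% and 1.14%). The difference in summed cathepsin reads was carried by the leading pair. Relative to the 12 microglial markers, *Ctsb* and *Ctsd* together had 0.945 (active) and 0.685 (lineage) reads per marker read (log2 difference 0.46, 0.45 to 0.47). The other 6 cathepsins had 0.450 and 0.469 (-0.06, -0.07 to -0.05).

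**Figure D4:**
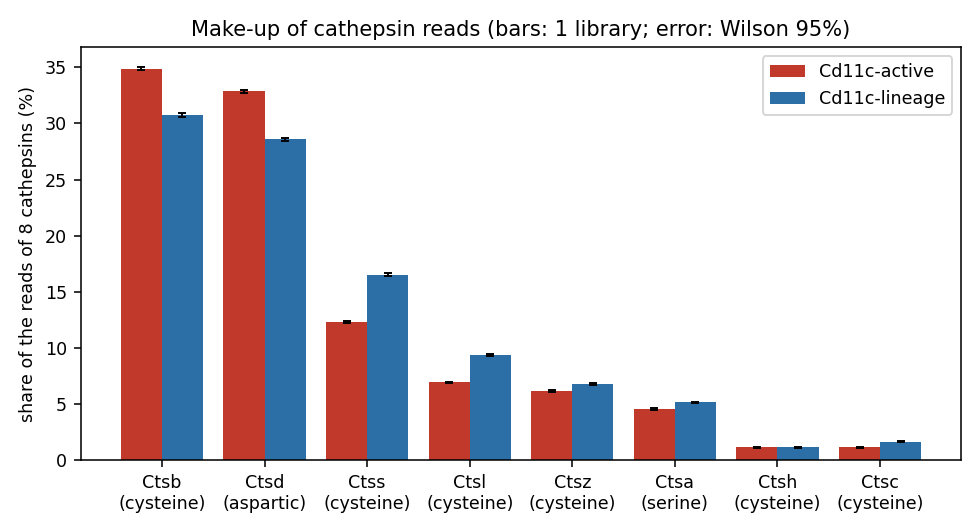
Share of the reads of the 8 cathepsins taken by each, in percent, with 1 bar per library and Wilson 95% intervals that cover counting error only. Together Ctsb and Ctsd take 67.7% of the active and 59.3% of the lineage bars, and the bars of Ctss and Ctsl are taller in Cd11c-lineage.

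The libraries had 13.6 and 13.7 cathepsin reads per cystatin read, a log2 difference of -0.01 (-0.03 to 0.02). After the length and GC correction this difference was 0.31, so the near-equal balance holds for reads as counted only. The 6 cysteine cathepsins, the type that cystatins inhibit, had 8.51 reads per cystatin read in Cd11c-active and 9.07 in Cd11c-lineage. That was a log2 difference of -0.09 (-0.12 to -0.07) as counted. The balance differed by enzyme: *Ctsb* and *Ctsd* together had 9.21 reads per cystatin read in Cd11c-active and 8.12 in Cd11c-lineage, and the other 6 cathepsins had 4.39 and 5.56. The inhibitor side was almost wholly *Cst3*. Without *Cst3*, the cathepsins stood 0.36 (log2) higher against *Cstb* in Cd11c-active.

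Levels per transcript length gave another order than reads. In RPKM (CPM per kilobase, over the longest well-supported coding transcript of the mouse annotation), *Ctsd* led with 4986 in Cd11c-active and 3365 in Cd11c-lineage. *Ctss* followed with 2934 and 3057, then *Cst3* with 2711 and 2079 and *Ctsb* with 2374 and 1624. *Ctsb*, whose transcript of 4743 bases is the longest of the 10, was in the fourth place. In Cd11c-lineage *Ctss* was thus close to *Ctsd* per length, and in Cd11c-active *Ctsd* was well above it. *Ctsz* had 1380 and 1184 RPKM, *Ctsl* 1135 and 1189 and *Ctsa* 581 and 509, while *Ctsh* (230 and 177), *Ctsc* (115 and 130) and *Cstb* (71.3 and 70.9) were lowest. These levels depend on the transcript chosen, as *Ctsl* also has an annotated form of 6168 bases against the 1971 used.

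Promoters were examined because lysosomal genes can be switched on together by the factor TFEB, which binds an E-box, and because the macrophage factor PU.1 binds near many myeloid genes. RefSeq windows of GRCm38.p6, from 250 bases before to 50 bases after the start site, matched 7 of the 10 members by symbol, in 8 windows, as *Ctsa* has 2. *Ctsb*, *Ctsh* and *Cstb* are not in the promoter table used. The E-box CACGTG, which reads the same on both strands, was in windows of *Ctsd*, *Ctsa* and *Ctsl*, and in 7.15% of all 32851 windows. Its longer form TCACGTGA, the core that TFEB prefers, was in windows of *Ctsd* and *Ctsa* and in 0.974% of all windows. The PU.1 core GAGGAAGT, searched on both strands, was in the windows of *Ctss* and *Ctsc* and in 3.20% of all. Each match is a match of letters, with no binding measured here. The windows printed are those with the longer E-box (*Ctsd* and *Ctsa*) and those with the PU.1 core (*Ctsc* and *Ctss*), with all matched letters in capitals. They lie at chr7:142387778-142388077 on the minus strand (Ctsd), chr2:164833523-164833822 on the plus strand (Ctsa, the second of its windows), chr7:88277835-88278134 on the plus strand (Ctsc) and chr3:95526536-95526835 on the plus strand (Ctss).
Ctsd: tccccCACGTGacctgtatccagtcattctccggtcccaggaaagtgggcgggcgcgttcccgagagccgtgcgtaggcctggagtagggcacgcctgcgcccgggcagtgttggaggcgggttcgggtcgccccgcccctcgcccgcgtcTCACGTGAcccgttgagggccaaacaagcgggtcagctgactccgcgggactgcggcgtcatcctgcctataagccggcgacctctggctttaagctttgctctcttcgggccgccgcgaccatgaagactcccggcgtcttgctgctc
Ctsa: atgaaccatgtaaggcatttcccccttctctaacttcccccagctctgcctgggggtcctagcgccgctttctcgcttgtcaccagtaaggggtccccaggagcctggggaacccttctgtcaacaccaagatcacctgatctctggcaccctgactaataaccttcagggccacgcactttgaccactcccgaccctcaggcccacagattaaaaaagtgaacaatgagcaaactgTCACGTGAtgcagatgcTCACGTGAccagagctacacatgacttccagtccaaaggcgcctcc
Ctsc: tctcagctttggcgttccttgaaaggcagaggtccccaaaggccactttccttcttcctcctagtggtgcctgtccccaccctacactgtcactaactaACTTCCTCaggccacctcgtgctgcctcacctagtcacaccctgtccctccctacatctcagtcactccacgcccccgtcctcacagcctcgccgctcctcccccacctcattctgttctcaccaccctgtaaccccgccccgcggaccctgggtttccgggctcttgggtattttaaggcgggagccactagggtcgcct
Ctss: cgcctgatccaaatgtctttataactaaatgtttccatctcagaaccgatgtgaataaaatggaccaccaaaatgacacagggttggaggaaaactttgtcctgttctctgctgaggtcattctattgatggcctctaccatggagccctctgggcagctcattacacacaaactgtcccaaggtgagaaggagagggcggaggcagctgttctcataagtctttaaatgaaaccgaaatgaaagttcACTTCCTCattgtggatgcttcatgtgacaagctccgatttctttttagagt

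Counted from the start site, with the first transcribed base as 1 and the base before it as -1, the TCACGTGA of *Ctsd* lay at -99 to -92, and a further E-box at -245 to -240. *Ctsa* had TCACGTGA at 2 places, at -13 to -6 and at 5 to 12, on either side of the start. The E-box of *Ctsl*, whose log2 ratio was -0.07, was at -236 to -231 and lacked the longer form. The PU.1 core lay at -151 to -144 in *Ctsc* and at -2 to 6 in *Ctss*, in both cases on the opposite strand. The windows of *Cst3* and *Ctsz* held none of the 3 motifs.

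Other genes of the pathway were taken from lists written down for this purpose. Their counts are to be read against all genes tested, of which 50.2% were above 0 and 44.9% past 2-fold. The share past 2-fold was 9.57% at 1000 reads or more and 64.3% from 20 to under 1000 reads. Of 16 further cathepsin and aspartic protease genes, 3 were in the table, and 0 were past 2-fold, 2 of the 3 having at least 1000 reads. *Ctsf*, the most read of them, had 3282 and 3791 reads and a log2 ratio of -0.02 (-0.09 to 0.05). Of 21 further cystatin family genes only *Cst7* was in the table. *Cst7* encodes cystatin F, a cystatin of immune cells that enters lysosomes and inhibits cathepsin C among others. *Cst7* was counted 1310 times in the active and 668 times in the lineage library, a log2 ratio of 1.16 (1.02 to 1.29). This was past 2-fold and, at the edge, within the middle 95% of its 200 nearest genes (-1.17 to 1.16), and the correction for length and GC content brought it to 0.92, short of 2-fold. *Cst7* was thus farther from 0 than any of the 10 members. *Ctsc*, given above, was at -0.17, and at -0.01 after the same correction.

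Among 6 other lysosomal peptidases in the table (of 9 listed), 6 were above 0 and 1 was past 2-fold, as were 44.9% of all genes. Of the 5 with at least 1000 reads, 1 was, against 9.57% of all genes with that many reads. The median log2 ratio of the 6 was 0.45. Relative to library totals, and likewise after the length and GC correction, 5 were above 0 and 1, *Lgmn*, below. *Lgmn*, encoding legumain, which cleaves cathepsin proenzymes into 2-chain forms, had 46585 and 52245 reads and a log2 ratio of 0.02 (0.003 to 0.04), which was -0.12 relative to library totals and -0.13 after the length and GC correction. *Dpp7*, a dipeptidyl peptidase, had 778 and 290 reads and a log2 ratio of 1.61 (1.41 to 1.81), within the middle 95% of its nearest genes (-1.43 to 1.93). Of the 13 genes of mannose 6-phosphate sorting and cathepsin partners, 11 were above 0 and 2 below, with a median of 0.23. Past 2-fold were 2 of them, against 44.9% of all genes. Of the 12 with at least 1000 reads, 1 was, near the background of 9.57%. Relative to library totals, 8 were above 0 and 5 below (median 0.09), as were 8 and 5 after the length and GC correction (median 0.05). The 2 genes past 2-fold were *Neu1*, given above, and *Igf2r*. The ratio of *Neu1*, 1.65, was outside the middle 95% of its nearest genes (-1.38 to 1.48). *Igf2r*, the large mannose 6-phosphate receptor, had 567 and 82 reads and a log2 ratio of 2.97 (2.64 to 3.33), inside the middle 95% of its nearest genes (-1.83 to 3.39), and was named after its values were seen. The most read gene of this list was *Psap*, the precursor of the saposins, with 118190 and 122629 reads and a log2 ratio of 0.13 (0.12 to 0.14), which was -0.003 relative to library totals and -0.02 after the length and GC correction. Of 27 lysosomal hydrolases that are not peptidases, 19 were above 0 and 8 below, and 0 were past 2-fold (9.57% of all genes at 1000 reads or more, as 23 of these had). Their median was 0.13. Relative to library totals 12 were above 0 and 15 below, with 1 past 2-fold, and after the length and GC correction 15 were above and 12 below.

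**Figure D5:**
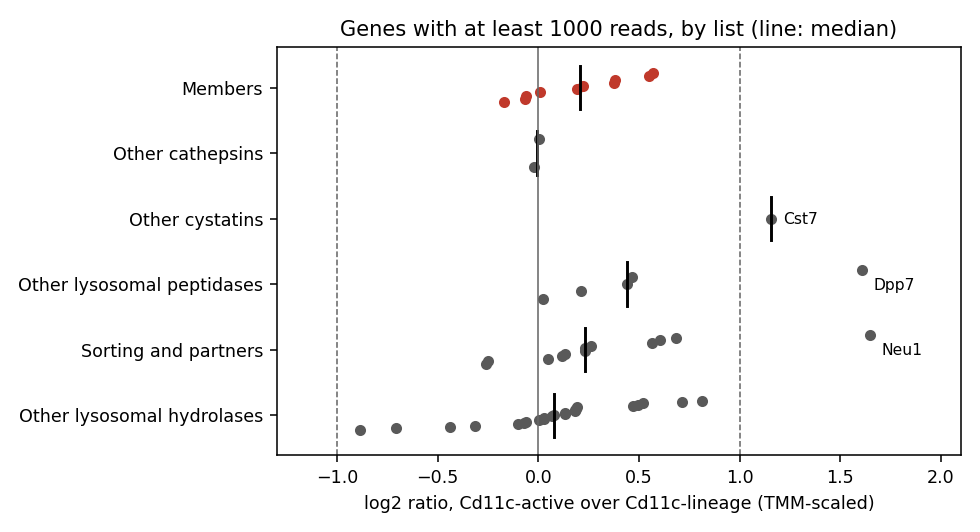
Log2 ratio of each gene with at least 1000 reads, by list, with the list's median as a line and dashed lines at 2-fold. The members lie between -0.17 and 0.57, and Cst7, Dpp7 and Neu1 are the genes beyond the line at 1.

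Some annotated genes overlap members, and whether the authors' counting used strand is not stated. In the mouse annotation (GENCODE for GRCm38), *Fdft1* overlaps *Ctsb* on the opposite strand and had 99 and 0 reads. *Pltp* (305 and 103 reads) and *Neurl2* (93 and 17) overlap *Ctsa*, and *Nelfcd* (330 and 374) overlaps *Ctsz*, each on the opposite strand. On the same strand, the pseudogene *Hmgb1-ps5* overlaps *Ctss* and had 18 and 2 reads. Gene models named Gm49369 and Gm49230 overlap *Ctsd* and *Ctsl* on the same strand and are not in the table. The authors' deposited table gives log2 fold changes of 0.43 for *Ctsd*, 0.41 for *Ctsb* and -0.31 for *Ctsc*, which equal the ratios relative to library totals to 2 decimals.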

How the data were processed

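Bulk RNA sequencing was done on 1 library each of Cd11c-active and Cd11c-lineage cells. Per the labels' protocols, ribosomal RNA was depleted and stranded libraries were prepared. The submitters' processing notes list cutadapt 3.5, STAR 2.7.9a, featureCounts 1.6.3, edgeR 4.0.16 and the build GRCm39. Settings, annotation and duplicate handling are not given in the sources used here. The authors deposited raw counts per gene, with no gene under 6 reads over both libraries. Per the file headers, the deposited table also has a log2 fold change per gene, and an average level as log2 CPM. Totals were 12943998 and 13402625 reads. A count of 0 allows up to 3 reads (0.243 and 0.214 CPM), counting error only.

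TMM factors (0.954 and 1.05) came from edgeR 4.0.16 in R 4.3.3. The log2 ratio used reads plus 0.5 over the effective library size; its 95% counting interval is Clopper-Pearson (exact). Intervals of ratios between genes came from the summed inverse counts. With 1 library per group no model across samples could be fitted, so no test was run, and genes with at least 20 reads are described by 2-fold. The 200 nearest genes were those closest in reads, members left out. For the most abundant genes most of these have fewer reads. The procedure was checked on simulated counts that held counting error only, so the check does not cover variation between libraries. Transcript length and GC content came from GENCODE for GRCm38 (13499 genes, 99.6%). Alternatives were library totals, DESeq2 1.42.0 size factors, TMM without ribosomal, mitochondrial, 7SK and 7SL genes, a prior count of 2, removal of a linear trend with length and GC content (fitted at 1000 reads or more), other read filters, a fold of 1.5 and other class definitions. Scaling to 12 microglial markers, 50 nearest genes, trend-removed class contrasts, and list and 1.5-fold counts under each scaling were chosen after seeing the data. Python 3.11.15, numpy 2.4.6, pandas 2.3.3, scipy 1.17.1 and matplotlib 3.10.9 were used.

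The members and lists were chosen with earlier results of these data known. Named genes were all members, and of each list the most read gene and any with at least 1000 reads and 2-fold or more. 1 gene that this rule names is not reported here.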

Additional observations from a re-analysis of the deposited data

How the results depend on the processing

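No paired analysis was possible because each group has 1 library and the labels carry no replicate number. DESeq2 size factors, TMM without abundant non-coding genes and a prior count of 2 kept all 10 log2 ratios within their counting intervals. Library totals moved the median of the members from 0.21 to 0.070, scaling to microglial markers to 0.11, and removal of the trend with length and GC content reversed it to -0.022. *Cstb*, at 0.01, reversed to -0.13 under library totals, -0.085 under scaling to microglial markers and -0.30 after trend removal, which also reversed *Ctsz* to -0.10 and *Cst3* to -0.030. The ratios of *Ctsb* (0.41 to 0.61) and *Ctsd* (0.34 to 0.57) were above 0 under every scaling tried. The count of members past 2-fold was 0 in each alternative. The count past 1.5-fold was 0 under every scaling and 1 (*Ctsb*) after trend removal. Without ribosomal, mitochondrial, 7SK and 7SL genes in the total, the members took 3.64% of Cd11c-active and 2.92% of Cd11c-lineage. The aspartic against cysteine difference of 0.28 became 0.43 with equal weight per cysteine enzyme, 0.56 without *Ctsb*, 0.074 after trend removal and 0.29 with all cathepsins in the table. The cathepsin against cystatin difference of -0.01 became 0.0053 with equal weight per gene, 0.36 without *Cst3*, -0.098 without *Ctsb*, 0.314 after trend removal and -0.039 with all listed family members. With 50 nearest genes *Ctsd* stood at percentile 88.0 and *Ctsb* at 86.0. Depth limits *Cstb* most. With 1 library per group, differences between libraries and between the groups cannot be told apart.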

Other observations

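Inhibitors outside the cystatin family were sparse. Of 12 serpins and other inhibitors listed, 4 were in the table, all with fewer than 1000 reads and all past 2-fold, in a range of reads where that is common (64.3% of genes with at least 20 and under 1000 reads). *Serpinb6a*, an intracellular serpin that inhibits cathepsin G, was counted 455 times in the active and 200 times in the lineage library, a log2 ratio of 1.37 (counting interval 1.13 to 1.62). *Serpinb9*, an inhibitor of granzyme B, had 328 and 105 reads. *Slpi*, a secreted inhibitor of leukocyte serine proteases, had 0 and 135 reads, and *Serpinb6b* 6 and 51. The last 3 were named after their values were seen. The ratio of *Serpinb6a* lay within the middle 95% of its 200 nearest genes (-1.79 to 2.77).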
